A study of Mus musculus with 6 samples.

Results

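The mitochondrial ribosomal protein genes were taken from the deposited gene table as the known genes whose symbol starts with Mrpl or Mrps followed by a digit, without pseudogenes, and whose raw counts summed to at least 60 over the 6 libraries. All 78 genes with such a symbol met this rule, of 24459 genes in the table, and the lowest summed count among them was 339. The samples were perihematomal brain, the tissue around the clot, of mice labelled wild type, on day 5 after intracerebral haemorrhage (ICH, bleeding into the brain). There were 3 libraries, headed T1, T2 and T3, from mice given TEPP-46, a small-molecule activator of the pyruvate kinase isoform PKM2, and 3, headed C1, C2 and C4, from mice given vehicle; both were given on 5 consecutive days after the bleed. The letter T was taken as treated and C as control, which the labels do not state. Total RNA was copied to cDNA, amplified by PCR and sequenced with a nanopore kit, and each library held 5286426 to 6025064 counts. Whether each library is a different animal is not stated in the labels, and p-values therefore describe the spread among these libraries.

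Mitochondria have their own ribosome, which translates the few messenger RNAs encoded in the mitochondrial genome into membrane subunits of the respiratory chain and of ATP synthase. Its proteins are all encoded in the nucleus, made by the cytosolic ribosome and imported. Names in Mrpl were given to proteins of the large subunit, which forms the peptide bonds, and names in Mrps to proteins of the small subunit, which reads the messenger. Of the 78 genes, 51 encode large-subunit proteins, among them 2 named Mrps, Mrps30 and Mrps18a, and 26 encode small-subunit proteins. The remaining gene, Mrps36, was named as a small-subunit protein but encodes a subunit of the oxoglutarate dehydrogenase complex. Proteins with a bacterial counterpart are encoded by 46 of the genes and proteins specific to mitochondria by 31. The genes lie on 17 chromosomes, with at most 11 on one, chromosome 11.

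Promoter windows, from 250 bases before to 50 bases after a RefSeq transcript start (build GRCm38.p6), were found for 69 of the 78 genes, 75 windows in all. They were searched on both strands for 3 sets of letters that are the textbook cores for regulators of such genes: GCGCA, any base and GCGC for NRF1, CCGGAAG for ETS factors such as GABP, and AAGATGGC for YY1, which can overlap the start codon. The 4 windows below are shown because the expression results turn on the first 3: Mrps30 and Mrps24 had the lowest log2 fold changes, Mrps10 had the smallest p among genes that were higher in TEPP-46 tissue, and Mrps26 holds several of the letters. All are written 5′ to 3′ on the gene's strand, with the letters that were searched for in capitals.
Mrps30, chr13:118387203-118387502, minus strand: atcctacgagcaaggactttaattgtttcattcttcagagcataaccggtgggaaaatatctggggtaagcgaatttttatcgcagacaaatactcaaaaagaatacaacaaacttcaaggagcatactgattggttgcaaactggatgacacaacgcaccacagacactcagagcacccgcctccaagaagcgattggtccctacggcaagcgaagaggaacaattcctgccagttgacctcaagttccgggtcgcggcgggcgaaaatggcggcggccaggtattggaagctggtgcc
Mrps24, chr11:5707652-5707951, minus strand: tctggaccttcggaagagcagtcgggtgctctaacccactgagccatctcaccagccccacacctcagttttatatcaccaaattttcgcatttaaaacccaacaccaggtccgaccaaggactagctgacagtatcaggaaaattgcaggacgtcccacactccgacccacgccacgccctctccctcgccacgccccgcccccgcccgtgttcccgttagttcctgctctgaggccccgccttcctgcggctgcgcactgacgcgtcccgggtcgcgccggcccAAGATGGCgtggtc
Mrps10, chr17:47368947-47369246, plus strand: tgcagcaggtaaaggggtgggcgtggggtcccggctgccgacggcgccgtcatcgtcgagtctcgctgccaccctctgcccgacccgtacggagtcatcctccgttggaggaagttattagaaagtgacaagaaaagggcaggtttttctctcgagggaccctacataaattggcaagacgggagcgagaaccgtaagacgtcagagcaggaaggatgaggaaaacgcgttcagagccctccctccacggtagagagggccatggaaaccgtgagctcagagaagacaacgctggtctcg
Mrps26, chr2:130563507-130563806, plus strand: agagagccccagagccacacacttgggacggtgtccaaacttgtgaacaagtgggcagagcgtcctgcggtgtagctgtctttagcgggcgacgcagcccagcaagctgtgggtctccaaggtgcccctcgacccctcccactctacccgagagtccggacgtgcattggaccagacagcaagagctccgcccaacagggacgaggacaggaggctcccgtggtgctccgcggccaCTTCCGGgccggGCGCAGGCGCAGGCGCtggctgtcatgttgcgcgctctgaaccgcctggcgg

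The windows of Mrps30 and Mrps10 hold none of the 3 sets of letters, that of Mrps24 holds the YY1 letters 36 bases after the start, and that of Mrps26 holds the ETS letters and overlapping NRF1 letters at the start. Over the 75 windows of the mitochondrial ribosomal protein genes, the ETS letters were present in 34.7%, the NRF1 letters in 17.3% and the YY1 letters in 16.0%. Over the 13171 windows of all genes tested for expression, the ETS letters were present in 15.9%, the NRF1 letters in 9.22% and the YY1 letters in 4.09%. Over all 32851 windows the shares were 8.86% for ETS, 4.60% for NRF1 and 2.75% for YY1. Of the 12 YY1 matches, 8 lay after the start. At least 1 of the 3 was present in 57.3% of the windows of these genes, against 26.0% of the windows of tested genes, while the median GC content was 58.7% in the windows of these genes and 60.7% in those of tested genes. These are matches of letters and not sites of binding. The median log2 fold change, TEPP-46 over vehicle, was -0.03 for genes with the ETS letters and -0.05 for those without.

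A second shared feature was position. A protein-coding gene starting head to head within 500 bases was annotated beside 25 of the 78 genes, 32.1%, against 12.6% of 12943 tested protein-coding genes. The 25 include Mrps11 and Mrpl46, which start 412 bases apart, Mrpl36 beside Ndufs6, a subunit of respiratory complex I, at 29 bases, Mrpl32 beside the proteasome gene Psma2 at 75 bases, and Mrps12 beside Sars2, the mitochondrial seryl-tRNA synthetase, at 172 bases. Mrps11 had 62.9, 56.2 and 52.0 CPM (counts scaled to the library total) in TEPP-46 libraries T1, T2 and T3, against 53.9, 63.7 and 64.3 CPM in vehicle libraries C1, C2 and C4. Mrpl46 had 39.5, 27.0 and 31.3 CPM in TEPP-46 libraries, against 31.8, 33.9 and 36.1 CPM in vehicle libraries. Both ranges overlap.

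For 73 of the 78 genes the log2 fold change, TEPP-46 over vehicle, lay within 0.3 of zero, and Mrps30, lower in TEPP-46 tissue, had the largest. With edgeR's quasi-likelihood test over 14441 genes and Benjamini-Hochberg adjustment, none of the 78 genes passed an adjusted p of 0.05, where percent called over all genes was 0. The smallest adjusted p among them was 0.387, that of Mrps30. At an unadjusted p under 0.05 there were 2 of 78 genes, 2.56%, against 5.93% of all tested genes: Mrps10 was the higher one in TEPP-46 tissue, where 1.88% of all tested genes were higher, and Mrps30 the lower one, where 4.05% were lower. DESeq2, applied to the same counts, called 85 genes, 0.551%, and of the 78 it called Mrps30. Limma-voom called 0 of the 78, where percent called over all genes was 0, and had 3 at an unadjusted p under 0.05, against 6.43% of all tested genes. In bulk tissue, fewer cells of a type and less RNA per cell cannot be told apart.

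The log2 fold change was within 0.1 of zero for 43 genes and within 0.2 for 70, with a median standard error of 0.147. Its median was -0.04 over the 78 genes, with 27 above zero and 51 below, against 0.01 over all tested genes. For the 51 large-subunit genes the median was -0.07, with 15 above zero and 36 below. For the 26 small-subunit genes it was -0.03, with 11 above zero and 15 below. The side of zero rested on 1 library: without C4 the median over the 78 genes was 0.03, with 44 above zero. Genes for proteins with a bacterial counterpart had a median of -0.04, and genes for mitochondria-specific proteins one of -0.06.

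**Figure D1:**
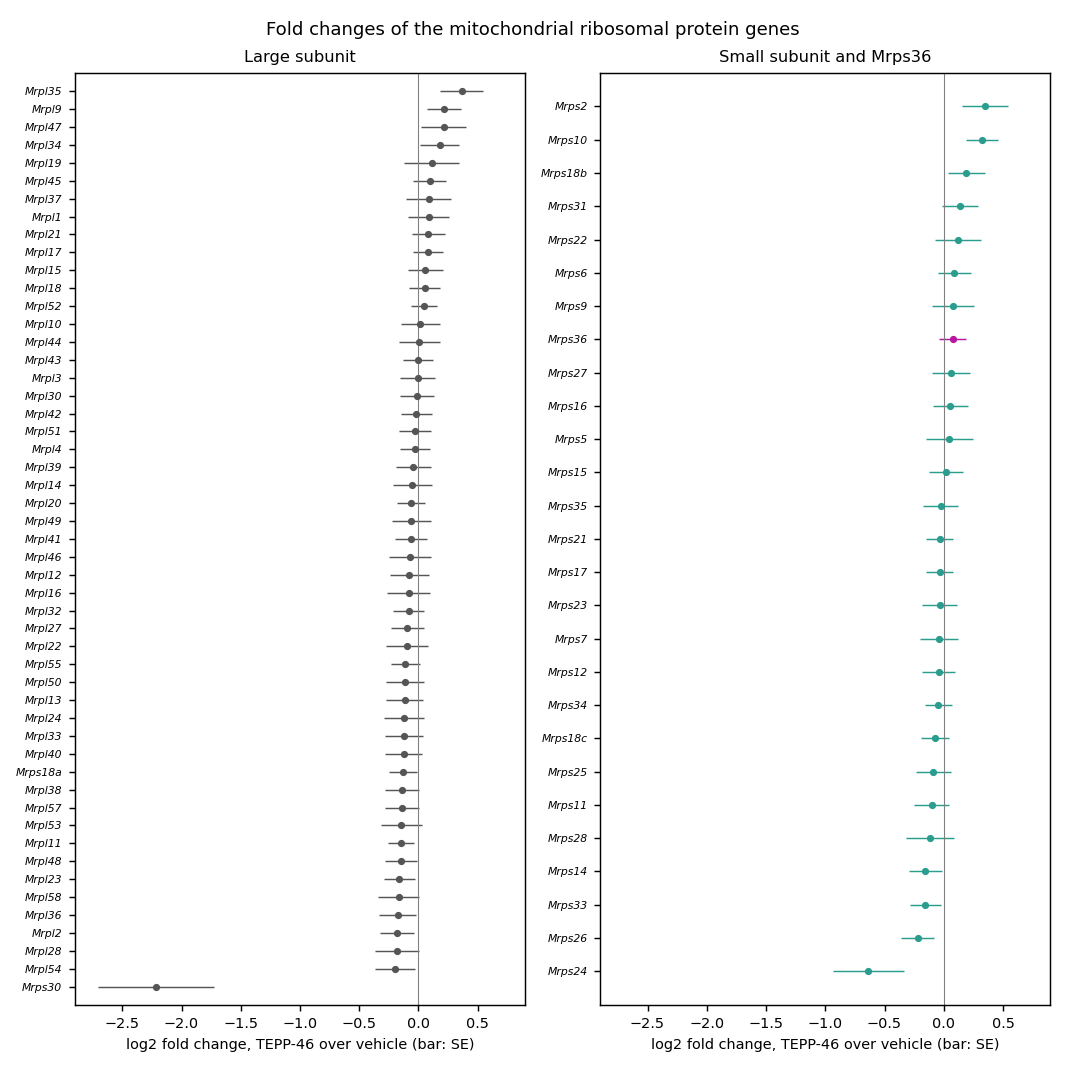
Log2 fold change of each of the 78 genes, TEPP-46 over vehicle, with its standard error (horizontal axis; 3 libraries a group). The large-subunit genes are on the left and the small-subunit genes, with Mrps36 in purple, on the right. All but 5 genes (Mrpl35, Mrps2, Mrps10, Mrps24 and Mrps30) lie within 0.3 of zero, and Mrps30 lies at -2.22.

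Summed over the 78 genes, the level was 6720, 6345 and 6594 CPM in TEPP-46 libraries T1, T2 and T3, against 6582, 6455 and 7374 CPM in vehicle libraries C1, C2 and C4. The groups overlap, and C4 was the highest library. The sum averaged 6553 ± 191 CPM in TEPP-46 libraries and 6804 ± 498 CPM in vehicle libraries (SD, n = 3 each), which is a difference smaller than the SD of the vehicle libraries. The difference of the means, TEPP-46 minus vehicle, was -251 CPM, and 34.4 CPM without C4. The sum made up 0.634% to 0.737% of all counts. The ratio of the summed large-subunit to the summed small-subunit level was 1.92, 1.75 and 1.74 in TEPP-46 libraries, against 1.81, 1.80 and 1.78 in vehicle libraries, so that T1 stood above the other 5 libraries.

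C4 held the highest CPM for 39 of the 78 genes, while it was the highest library for 24.2% of all tested genes. The median deviation of the 78 genes from their own mean, on a log2(CPM + 0.5) scale, was 0.13 in C4 and lay between -0.07 and 0.04 in the other 5 libraries. The libraries also differed in the summed CPM of marker genes. C4 was the lowest library for markers of oligodendrocytes, astrocytes, microglia, macrophages, choroid plexus with ependyma, and red blood cells. It was not the lowest for markers of neurons or endothelium. The astrocyte sum was 2175 CPM in C4 and 2529 to 3262 CPM in the other libraries. The microglia sum was 669 CPM in C4 and 1017 to 2608 CPM in the other libraries. The summed level of 7 oligodendrocyte markers, such as Mbp and Mobp, was 10364 to 12389 CPM in the 3 TEPP-46 libraries, against 10826 and 10603 CPM in C1 and C2 and 4414 CPM in C4. All 7 markers were detected, and 0 of the 7 passed the edgeR test, where percent called over all genes was 0. For 8 genes listed as macrophage markers the sum was 465 to 2552 CPM in TEPP-46 libraries, against 251, 4398 and 143 CPM in C1, C2 and C4. These genes were Lyz2, Ccr2, Ms4a7, F13a1, Mrc1, Pf4, Spp1 and Gpnmb, and not all are particular to infiltrating cells. For 7 markers of choroid plexus and ependyma, such as Ttr, it was 3983, 2255 and 3934 CPM in TEPP-46 libraries, against 4981, 222 and 185 CPM in C1, C2 and C4. The part of these differences in the levels of the ribosomal protein genes was not tested. The summed level of 7 neuronal markers, which include the neuronal genes Snap25 and Syt1, was 3196 to 4302 CPM in TEPP-46 libraries, against 2908 to 3835 CPM in vehicle libraries.

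**Figure D2:**
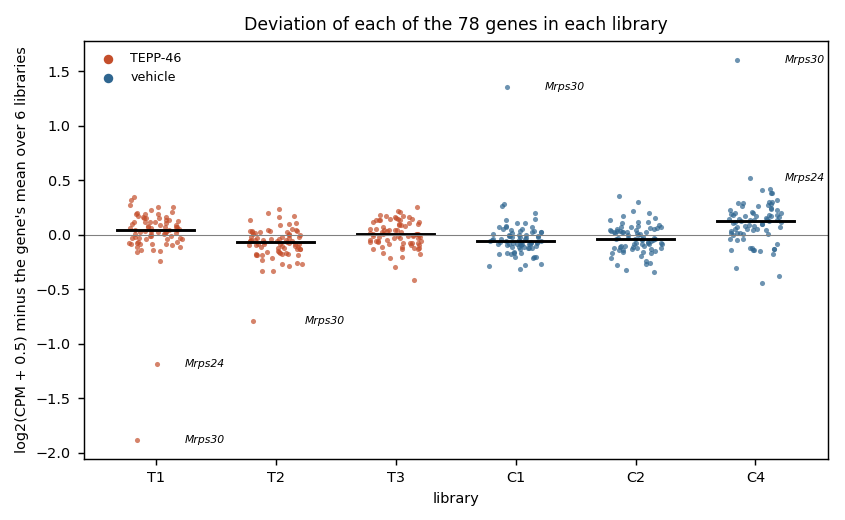
Deviation of each of the 78 genes from its own mean over the 6 libraries, as log2(CPM + 0.5) (vertical axis), in each library (horizontal axis). Points are genes, black bars are medians over the 78 genes, TEPP-46 libraries are red and vehicle libraries blue. The median is 0.13 in C4, and Mrps30 and, in T1, Mrps24 lie far from the other genes.

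Between replicates the genes varied little. The coefficient of variation within groups had a median of 10.2% over the 78 genes, where counting error alone gives a median of 5.54%. Over all tested genes the median was 19.8%, with 10.9% from counting error. It exceeded 20% for Mrps24 and Mrps30 alone and was under 10% for 36 genes. Genes of the cytosolic ribosome, measured in the same libraries, had a median of 10.5%, with 1.45% from counting error.

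The 3 TEPP-46 libraries lay wholly above or wholly below the 3 vehicle libraries for 9 of the 78 genes, 11.5%. This share is near the 11.4% of all tested genes. Higher in every TEPP-46 library were 5 genes, Mrps10, Mrpl35, Mrps2, Mrpl9 and Mrps31, and 5.67% of all tested genes. Lower in every one were 4 genes, Mrps30, Mrps24, Mrps26 and Mrpl11, and 5.76% of all tested genes.

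Mrps30, which encodes a mitochondria-specific protein of the large subunit despite its name, differed by the most. It had 1.66, 4.09 and 5.46 CPM in TEPP-46 libraries T1, T2 and T3, against 19.9, 8.07 and 23.6 CPM in vehicle libraries C1, C2 and C4. These levels rest on 10, 23 and 29 counts in TEPP-46 libraries, against 106, 46 and 125 counts in vehicle libraries. The groups did not overlap, and C2 stood between the TEPP-46 libraries and the other 2 vehicle libraries. The log2 fold change was -2.22 (SE 0.49), with an unadjusted p of 0.0015 and an adjusted p of 0.387 by edgeR. With DESeq2 the adjusted p was 0.0035, and edgeR without C2 gave a log2 fold change of -2.55 with an adjusted p of 0.036, in a fit that called 43 genes, 0.291% of those tested. Without C4 the log2 fold change was -1.91, with an unadjusted p of 0.0055 and an adjusted p of 0.99997 by edgeR. Leaving out T1, T2, T3 or C1 gave adjusted edgeR p-values of 0.974, 0.982, 0.506 and 0.639. In the authors' deposited table Mrps30 was the 1 gene of the 78 listed as changed, in a list of 225 genes, 1.42%. That list takes an unadjusted DESeq2 p of 0.01 and a fold change of 1.5 as its thresholds. Mrps30 had a log2 fold change of -1.06 there, with an unadjusted DESeq2 p of 4.3e-06. This estimate is smaller in size than the -2.22 of edgeR, and the reason was not tested.

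Mrps30 spans chr13:118378381-118387252 on the minus strand, and its counts were all assigned to 1 isoform of 5 exons. Another gene, B430218F22Rik, overlaps it on the opposite strand and had 0 to 2 counts in each library. Mrps30 averaged 10.5 CPM over the 6 libraries, the lowest level of the 78 genes, and its 339 counts in all were the fewest. Next lowest was Mrps2 with 13.9 CPM.

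Mrps24, the homologue of the bacterial protein that lines the channel where the messenger enters the small subunit, was the next in size. It had 63.6, 140 and 161 CPM in TEPP-46 libraries T1, T2 and T3, against 167, 185 and 209 CPM in vehicle libraries C1, C2 and C4. The groups did not overlap, but T3 lay close to C1, and T1 was far below the other 5 libraries. The log2 fold change was -0.64 (SE 0.30, unadjusted p 0.065 and adjusted p 0.867 by edgeR), and without T1 it was -0.33. The 3 isoforms of Mrps24 held nearly equal counts in each library, among them 128, 263 and 275 counts of Mrps24-205, the protein-coding one, in TEPP-46 libraries, against 284, 346 and 356 counts in vehicle libraries. The other 2 are new isoforms and held 67.4% of the counts, and Mrps24 overlaps Urgcp on the same strand. Urgcp itself had 470, 495 and 388 counts in TEPP-46 libraries, against 383, 405 and 478 counts in vehicle libraries, and was not low in T1.

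Mrps10, a conserved protein of the head of the small subunit, was the gene with the smallest unadjusted p among those that were higher in TEPP-46 tissue. It had 102, 111 and 104 CPM in TEPP-46 libraries T1, T2 and T3, against 90.8, 88.8 and 72.3 CPM in vehicle libraries C1, C2 and C4. The groups did not overlap, and C4 was the lowest library, unlike for most of these genes. The log2 fold change was 0.32 (SE 0.13, unadjusted p 0.039 and adjusted p 0.810 by edgeR), and it was 0.22 without C4. Its isoforms Mrps10-201 and Mrps10-202, which start at chr17 position 47369197, in the window printed above, had log2 fold changes of 0.41 and 0.43. Mrps10-203, which starts upstream at position 47368891 and held more counts, had one of 0.21. By edgeR the unadjusted p was 0.036 for Mrps10-201, 0.032 for Mrps10-202 and 0.207 for Mrps10-203, and none passed adjustment.

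**Figure D3:**
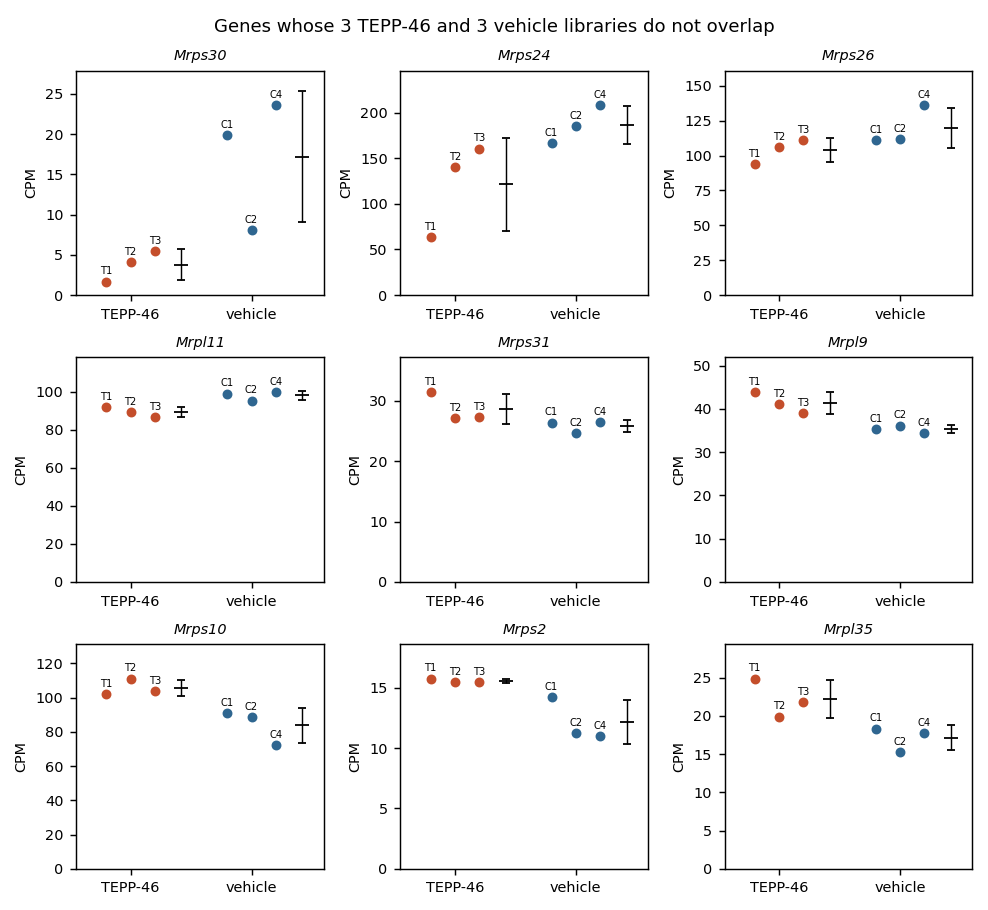
CPM in each library (vertical axis, from 0) of the 9 genes whose 3 TEPP-46 libraries (red, left) and 3 vehicle libraries (blue, right) do not overlap, ordered by log2 fold change. Points are libraries and black bars the mean ± SD. Mrps30 and Mrps24 show the widest spread within groups, and for Mrps26 and Mrps31 the groups nearly touch.

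The other genes whose groups did not overlap differed by less. Mrpl35, a conserved large-subunit protein, had 24.9, 19.9 and 21.9 CPM in TEPP-46 libraries, against 18.4, 15.3 and 17.8 CPM in vehicle libraries (log2 fold change 0.36, SE 0.18, adjusted p 0.882 by edgeR). Mrps2, a conserved small-subunit protein, had 15.8, 15.5 and 15.5 CPM in TEPP-46 libraries, against 14.2, 11.2 and 11.0 CPM in vehicle libraries (log2 fold change 0.35, SE 0.20). Mrpl9, a conserved large-subunit protein, had 44.0, 41.1 and 39.0 CPM in TEPP-46 libraries, against 35.4, 36.1 and 34.4 CPM in vehicle libraries (log2 fold change 0.21, SE 0.14). In all 3, the nearest libraries of the groups were closer on the log2 scale than the standard error. Mrps26, a mitochondria-specific small-subunit protein whose window is printed above, had 94.1, 106 and 111 CPM in TEPP-46 libraries, against 111, 112 and 136 CPM in vehicle libraries, with T3 just below C1 (log2 fold change -0.22, SE 0.14). Mrps31, chosen here because its groups did not overlap, had a log2 fold change of 0.14 (SE 0.16). Mrps18b and Mrpl47, also among the 6 higher genes with the smallest unadjusted p, and Mrpl2 and Mrpl54, among the 6 lower ones, had overlapping groups and log2 fold changes between -0.20 and 0.21.

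In the parts of the ribosome with a known task, no gene passed the edgeR test, where percent called over all genes was 0. The stalk of the large subunit, which recruits the elongation factors, is built by Mrpl10, Mrpl11 and Mrpl12. Mrpl11, at its base, had 92.1, 89.5 and 86.7 CPM in TEPP-46 libraries, against 99.1, 95.4 and 100 CPM in vehicle libraries, where the gap between the groups was narrower than the range within each (log2 fold change -0.15, SE 0.11, adjusted p 0.973 by edgeR). Mrpl10 and Mrpl12 had overlapping groups, with log2 fold changes of 0.01 (SE 0.16) and -0.08 (SE 0.16). Around the exit tunnel, Mrpl23 had 152, 137 and 181 CPM in TEPP-46 libraries, against 163, 171 and 187 CPM in vehicle libraries (log2 fold change -0.16, SE 0.13). Mrpl45, which ties the ribosome to the inner membrane, had a log2 fold change of 0.10 (SE 0.14). Mrpl58 is a peptidyl-tRNA hydrolase built into the large subunit, which releases stalled chains. It had 132, 113 and 106 CPM in TEPP-46 libraries, against 113, 113 and 164 CPM in vehicle libraries, and C4 alone lay above the TEPP-46 range.

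In the small subunit, Mrps12 sits at the decoding centre and Mrps5 at the messenger entry. Mrps12 had 113, 101 and 101 CPM in TEPP-46 libraries, against 99.4, 97.4 and 125 CPM in vehicle libraries, and the groups overlap (log2 fold change -0.04, SE 0.14). Mrps5 had 78.2, 56.6 and 65.6 CPM in TEPP-46 libraries, against 77.3, 67.5 and 47.3 CPM in vehicle libraries (log2 fold change 0.05, SE 0.20). Mrps36, the protein of the oxoglutarate dehydrogenase complex, had 95.9, 90.7 and 93.6 CPM in TEPP-46 libraries, against 86.1, 86.1 and 91.4 CPM in vehicle libraries (log2 fold change 0.08, SE 0.12).

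Levels between genes were compared as mean CPM over the 6 libraries, without division by transcript length. In the large subunit the highest were Mrpl33 with 572, Mrpl42 with 236 and Mrpl52 with 207 CPM. In the small subunit they were Mrps17 with 292, Mrps21 with 284 and Mrps33 with 199 CPM. Mrps21 had 277, 288 and 280.0 CPM in TEPP-46 libraries, against 288, 256 and 313 CPM in vehicle libraries. Mrpl52, a mitochondria-specific protein, had 205, 203 and 224 CPM in TEPP-46 libraries, against 209, 210.3 and 187 CPM in vehicle libraries. Mrpl42, also specific to mitochondria, had 269, 207 and 231 CPM in TEPP-46 libraries, against 223, 232 and 254 CPM in vehicle libraries. Mrps21, Mrpl52 and Mrpl42 had overlapping groups and log2 fold changes between -0.03 and 0.05, and so did Mrps17 at -0.03. Mrps33, with C4 as its highest library, was at -0.16 (SE 0.13). Mrpl33 had the highest level of the 78 genes. It was also the gene in which the counts lay mainly on an isoform annotated as a target of nonsense-mediated decay.

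Mrpl33, a small conserved large-subunit protein, had 572, 583 and 492 CPM in TEPP-46 libraries T1, T2 and T3, against 687, 454 and 641 CPM in vehicle libraries C1, C2 and C4. Of its counts, 75.1% were on Mrpl33-205, a 7-exon isoform annotated as nonsense-mediated decay, and 13.1% on the 4-exon protein-coding Mrpl33-201. Both share exon 3 (chr5:31616381-31616487, plus strand, GRCm38) and part there: exon 4 is chr5:31650303-31650484 in Mrpl33-205 and chr5:31622377-31622644 in Mrpl33-201. The 30 bases around that junction are shown, from the GENCODE M21 transcripts, with the first bases of exon 4 in capitals.
Mrpl33-205: actatgatccaatagGCAACACCAGTAGCA
Mrpl33-201: actatgatccaatagTGAACAAAAAAGTTC

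Mrpl33-205 had 436, 445 and 354 CPM in TEPP-46 libraries, against 556, 312 and 475 CPM in vehicle libraries, so that the vehicle libraries alone spanned the whole range. Mrpl33-201 had 71.5, 72.0 and 72.7 CPM in TEPP-46 libraries, against 69.1, 75.3 and 86.8 CPM in vehicle libraries. The log2 fold change was -0.14 (SE 0.18) for Mrpl33-205 and -0.13 (SE 0.13) for Mrpl33-201, and neither passed the edgeR test (adjusted p 0.999 for both). Part of Mrpl33 overlaps Rbks on the opposite strand, which had 7 to 16 counts in each library.

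In the isoform table the 78 genes had 270 isoforms, of which 164 were annotated as protein-coding, 23 as nonsense-mediated decay and 83, in 43 genes, were new isoforms without a reference identifier. Protein-coding isoforms held 66.3% ± 1.0 of the counts in TEPP-46 libraries and 65.7% ± 1.4 in vehicle libraries (SD, n = 3 each). Isoforms annotated as nonsense-mediated decay held 10.2% ± 0.83 in TEPP-46 libraries and 10.4% ± 1.8 in vehicle libraries. The shares overlapped between the groups. Besides Mrpl33, more than 10% of the counts were on such isoforms in 7 genes, among them Mrps34 with 39.7%, Mrpl32 with 38.9% and Mrps11 with 37.2%. Mrps17 had the most isoforms, 17, and 17 genes had a single one. For 7 genes more than 50% of the counts were on new isoforms, led by Mrpl4 with 71.0%.

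Of the 270 isoforms, 218 were tested and none passed an adjusted p of 0.05 in edgeR, where percent called over 33854 isoforms was 0. At an unadjusted p under 0.05 there were 4, Mrps30-201, Mrpl48-207, Mrps10-202 and Mrps10-201, against 5.77% of all tested isoforms. DESeq2 called 1 of the 270, Mrps30-201, against 0.442% of all isoforms it tested. The authors' deposited table also lists 1 of them as changed, Mrps30-201, against 0.323% of its isoforms with a value. Its thresholds for isoforms are an adjusted DESeq2 p (FDR) of 0.05 and a fold change of 1.5. Isoform usage, that is how a gene's counts divide among its isoforms, could be tested in 57 of the genes. None passed by the Simes method in edgeR, where percent called over 7639 genes was 0.0131, and 0 were at an unadjusted p under 0.05, against 0.641% of those genes. By the F test for each gene, 0 genes passed adjustment. At an unadjusted F test p under 0.05 there was 1 of the 57, Mrpl48. The share of all genes under it by the F test is not given here, so that the 1 has no background beside it.

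The smallest usage p was that of Mrpl48, a mitochondria-specific large-subunit protein (Simes p 0.068, adjusted p 1.00, and F test p 0.018, adjusted p 1.00, by edgeR). Its isoforms Mrpl48-207 and Mrpl48-208 have different first exons, at chr7:100607891-100608301 and chr7:100582990-100583102 on the minus strand, and a common exon 2 at chr7:100574462-100574514. The 30 bases around these junctions are shown with the last bases of the first exon in capitals. After them follows the promoter window of a RefSeq start at chr7 position 100583130, within 50 bases of the start of Mrpl48-208. Its ETS letters, in capitals, lie 34 bases before that RefSeq start. The other windows of Mrpl48, among them that at the start of Mrpl48-207 (chr7:100608252-100608551), hold none of the letters searched for.
Mrpl48-207: GGCGCGGAGACTGAGgtgctgggtgtgtgg
Mrpl48-208: GGAACCCTGGGAAAGgtgctgggtgtgtgg
Mrpl48, chr7:100583081-100583380, minus strand: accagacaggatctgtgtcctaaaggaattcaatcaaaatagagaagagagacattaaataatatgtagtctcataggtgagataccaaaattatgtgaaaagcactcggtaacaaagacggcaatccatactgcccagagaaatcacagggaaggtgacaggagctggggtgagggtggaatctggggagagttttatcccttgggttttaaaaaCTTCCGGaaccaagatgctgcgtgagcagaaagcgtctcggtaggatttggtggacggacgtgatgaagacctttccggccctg

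Mrpl48-207, the isoform with the upstream first exon, had 11.95, 13.16 and 15.64 CPM in TEPP-46 libraries T1, T2 and T3, against 17.98, 17.02 and 31.59 CPM in vehicle libraries C1, C2 and C4. The groups did not overlap, and C4 was far above the others. The log2 fold change was -0.73 (SE 0.25, unadjusted p 0.012 and adjusted p 0.656 by edgeR). Mrpl48-208 had 52.9, 42.2 and 40.5 CPM in TEPP-46 libraries, against 45.9, 45.6 and 47.3 CPM in vehicle libraries, with overlapping groups (log2 fold change -0.06, SE 0.15). The share of Mrpl48-207 in the counts of Mrpl48 was 13.7% ± 2.7 in TEPP-46 libraries and 19.8% ± 4.5 in vehicle libraries (SD, n = 3 each). Of the 411 bases of its first exon, 403 also lie in the first exon of Rab6a on the opposite strand, which had 1294, 1814 and 1623 counts in TEPP-46 libraries, against 2085, 1567 and 2242 counts in vehicle libraries. Whether reads were counted by strand is not given in the sources used here, and the part of Rab6a in the count of Mrpl48-207 was not tested. Mrpl15 and Mrpl14, the next by usage p, had Simes p-values of 0.342 and 0.362 in edgeR.

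**Figure D4:**
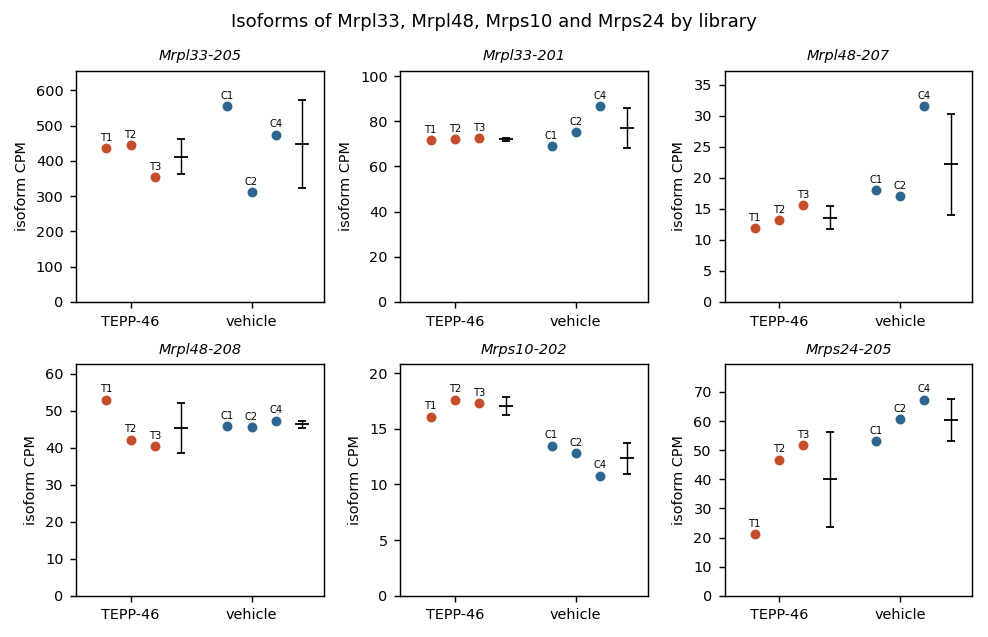
CPM in each library (vertical axis, from 0) of 6 isoforms, with TEPP-46 libraries in red on the left and vehicle libraries in blue on the right. Points are libraries and black bars the mean ± SD. The groups are apart for Mrpl48-207, Mrps10-202 and Mrps24-205, and overlap for both Mrpl33 isoforms and for Mrpl48-208.

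Neighbouring genes overlapped 26 of the 78 genes, 4 of them on the same strand and 23 on the opposite one, with Mrps34 on both, so that counts of these genes may hold reads of the neighbour. Beside Mrps24 and Urgcp, the same-strand pairs are Mrpl53 with Gm42688, Mrps34 with Nme3, and Mrps6 with Slc5a3 and Gm49711. None of these neighbours passed the edgeR test, where percent called over all genes was 0.

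The rest of the mitochondrial translation system was read beside these genes from lists of other genes. Over all 14441 tested genes 0 passed the edgeR test as well, so that a 0 does not set a list apart. Of 5 further mitoribosomal proteins that carry other names, 0 passed the edgeR test and 4 had log2 fold changes below zero, with a median of -0.07. The one with the smallest p was Dap3, a GTP-binding protein of the small subunit. It had 45.3, 48.4 and 48.2 CPM in TEPP-46 libraries, against 50.4, 62.4 and 62.6 CPM in vehicle libraries, so that C1 lay near the TEPP-46 libraries (log2 fold change -0.32, SE 0.15, unadjusted p 0.058 and adjusted p 0.854 by edgeR). The summed level of the 5 was 484, 477 and 494 CPM in TEPP-46 libraries, against 478, 490 and 563 CPM in vehicle libraries, and as for the 78 genes C4 was the highest library.

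Of 22 detected assembly factors, which process the ribosomal RNAs and join the proteins, 0 passed, and their median log2 fold change was -0.04. Rbfa, which acts on the small subunit RNA, had 14.3, 21.9 and 20.2 CPM in TEPP-46 libraries, against 30.9, 26.3 and 30.8 CPM in vehicle libraries. The groups did not overlap (log2 fold change -0.66, SE 0.20, unadjusted p 0.0098 and adjusted p 0.642 by edgeR). Of 15 translation factors 0 passed, and the one with the smallest p was Oxa1l, which inserts the new chains into the inner membrane, with a log2 fold change of 0.35 (SE 0.19, adjusted p 0.897 by edgeR).

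Of 17 mitochondrial aminoacyl-tRNA synthetases, which charge the tRNAs, 0 passed, and 13 had log2 fold changes below zero. Their summed level was 159, 153 and 171 CPM in TEPP-46 libraries, against 186, 182 and 191 CPM in vehicle libraries, and these sums do not overlap. Yars2, the tyrosyl one, had 6.64, 3.38 and 5.65 CPM in TEPP-46 libraries, against 12.5, 7.37 and 23.8 CPM in vehicle libraries (log2 fold change -1.49, SE 0.44, unadjusted p 0.0081 and adjusted p 0.615 by edgeR). Of 12 genes of mitochondrial transcription and its regulators 0 passed, and the one with the smallest p was the coactivator Ppargc1b, with a log2 fold change of 0.71 (SE 0.31, adjusted p 0.838 by edgeR).

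The 13 messenger RNAs that this ribosome translates summed to 27234, 31238 and 27587 CPM in TEPP-46 libraries, against 26939, 31344 and 23644 CPM in vehicle libraries. The groups overlap, and C4, the library with the highest sum of ribosomal protein genes, had the lowest. Their median log2 fold change was 0.07, and 0 of 13 passed. The 83 genes of the cytosolic ribosome summed to 84589, 91710 and 98399 CPM in TEPP-46 libraries, against 85149, 98216 and 81351 CPM in vehicle libraries. Their median log2 fold change was 0.04, with 65 above zero and 18 below, and 0 passed the edgeR test.

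**Figure D5:**
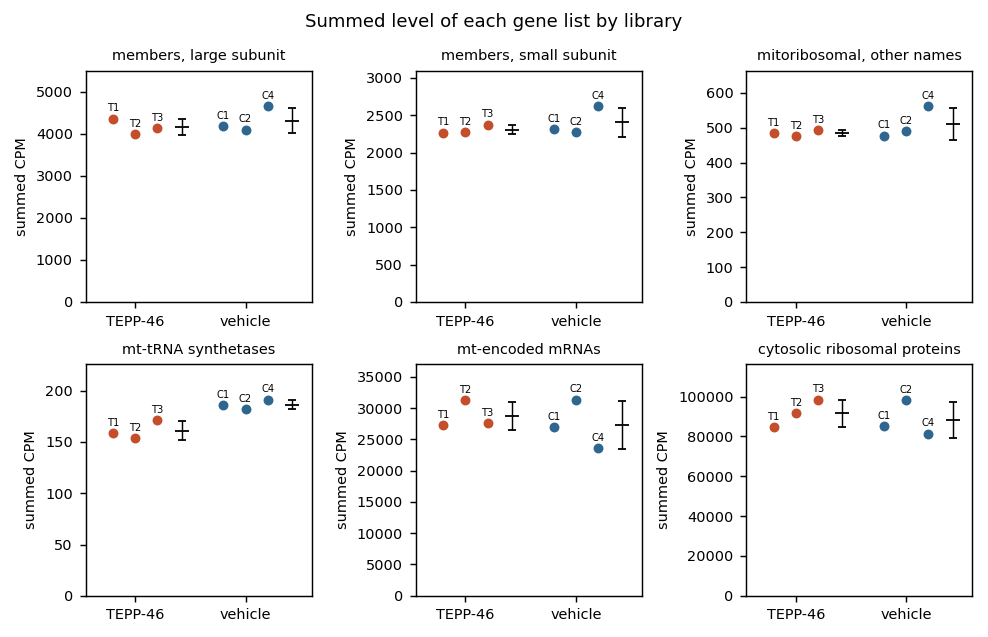
Summed CPM of 6 gene lists in each library (vertical axes from 0, with a scale for each list), with TEPP-46 libraries in red on the left and vehicle libraries in blue on the right. Points are libraries and black bars the mean ± SD. The groups overlap in every list but the mitochondrial tRNA synthetases, and C4 is the highest library for both subunits and the lowest for the mitochondrially encoded messenger RNAs and the cytosolic ribosomal proteins.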

How the data were processed

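The authors deposited tables of raw counts per gene and per isoform for 6 libraries, per the file headers. The submitters' processing notes name the build GRCm38 and DESeq 1.10.1, and the file headers name DESeq2. Not given in the sources used here are the aligner, the counting tool, the use of strand and how reads matching more than 1 isoform were treated. The p-values and log2 fold changes deposited by the authors are used only where the text names their table, and 12 other columns of values per library were not used. Column letters were read as T for treated, taken as the TEPP-46 group, and C for control, taken as the vehicle group. The labels do not state this, and the direction of every difference rests on it. Column numbers and the samples' own numbers differ, and libraries keep their column names here, without an order.

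CPM was computed from the counts and library totals. The tests on genes and isoforms used edgeR 4.0.16 (R 4.3.3; filterByExpr, TMM scaling, quasi-likelihood F test with group as its 1 term; diffSpliceDGE for isoform usage) and p-values were adjusted over all features tested. The fit was tested on simulated data. DESeq2 1.42.0, limma 3.58.1, other scalings and filters, and leaving out each library were alternatives. Standard errors are the fitted log2 fold change over the square root of F. Coordinates and isoform types are from GENCODE M21 (GRCm38), and promoter sequences from RefSeq (GRCm38.p6). Isoforms of a gene may share reads, and their counts were treated as independent. Precision is limited by counting as well as by 3 libraries a group.

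The members, the gene lists and the tests were chosen with earlier results of these data known. Named genes are those called; the 6 higher and 6 lower with the smallest unadjusted p; the 3 most abundant of each subunit; genes with a fixed role; those with the smallest isoform p; and, for each list, the gene with the smallest p. Of the oligodendrocyte markers chosen, 1 is not reported here.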

Additional observations from a re-analysis of the deposited data

How the results depend on the processing

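No paired analysis was possible because the column numbers could not be tied to the replicate numbers in the labels. Among the 78 genes, the number called was 1 with DESeq2, against 0.551% of all tested genes. When each library was left out in turn it was 0 to 1 (1 without C2, against 0.291%). Both times the gene was Mrps30. The number was 0 with RLE scaling, library totals, no filter, a stricter filter and limma-voom, where 0 genes in all were called. The number at an unadjusted p under 0.05 was 1 with no filter, against 5.24% of all tested genes. It was 1 with the stricter filter, which Mrps30 did not pass, against 5.70%. When libraries were left out it was 1 to 2, against 3.95% to 10.2%. The number of isoforms called was 1 with DESeq2, against 0.442% of all isoforms it tested. With libraries left out it was 0 to 1 (1 without C2), and the share over all isoforms is not given here. The median log2 fold change of the small subunit lay between -0.077 and 0.072 with libraries left out, the highest value being that without C4. No gene had changed isoform usage under any alternative run. Mrps30 kept a log2 fold change between -2.58 and -1.85 under every alternative that tested it, with adjusted p-values from 0.0035 to 1.00, Mrps24 one between -0.89 and -0.33, and Mrps10 one between 0.22 and 0.38.

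Genes near zero changed sign, and none of them was called. Mrpl10 was at -0.00043 with RLE scaling, -0.0055 with no filter and -0.0019 with DESeq2. With libraries left out in turn, the log2 fold change lay between -0.092 and 0.153 for Mrpl10, -0.128 and 0.199 for Mrps5, -0.048 and 0.127 for Mrpl15, -0.122 and 0.062 for Mrpl42, -0.0039 and 0.085 for Mrpl52, -0.084 and 0.041 for Mrps17, -0.099 and 0.039 for Mrps21, -0.186 and 0.074 for Mrpl12, -0.265 and 0.033 for Mrpl58, -0.101 and 0.081 for Mrps12 and -0.148 and 0.082 for Mrpl14. Leaving out C4 turned the sign of 10 of these 11 genes. The cause was not tested. With 3 libraries a group and a median standard error of 0.147, small differences in these genes may have gone undetected, and values that do not pass do not show equal levels.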
